A study of Drosophila melanogaster with 4 samples.

Results

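The HP1a clusters described here lie in the centromere-proximal 2 Mb of the left arms of chromosomes 2 and 3 (2L and 3L). The rule went by position and was chosen with earlier results of these data known. It took the enriched regions of the authors' combined set whose midpoint fell in that span on FlyBase r5. This gave 201 of the 5583 clusters of the combined set, 106 on 2L and 95 on 3L. In the same spans replicate 1 had 159 of its 3564 clusters and replicate 2 had 205 of its 4467. The study mapped HP1a by ChIP-seq with the antibody HP1 wa191 in nuclei from heads of mixed adults of the wild-type Drosophila melanogaster strain Oregon-R (Oregon-R-modENCODE), untreated as far as the labels say and raised in population cages. It has 2 ChIP libraries and 2 input libraries, each input serving 1 ChIP replicate. Only the cluster lists were used, so the depth of the libraries is unknown, and nothing in the labels says whether the replicates came from separate cages. An SD over 2 replicates may therefore be technical.

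HP1a is the founding member of the HP1 family of heterochromatin proteins. Its chromodomain binds histone H3 methylated at lysine 9, the mark laid down by Su(var)3-9 and related enzymes, and its chromoshadow domain lets it dimerise and recruit partners, so that it can spread along repeat-rich sequence next to centromeres. Pericentric 2L and 3L hold the transition from this chromatin to the gene-rich arm, a junction of the kind at which moved genes variegate. They also hold genes, such as light on 2L, that need a heterochromatic setting for normal activity. No annotation on r5 was at hand, so clusters are given by position and no gene is assigned to them. Sequence without a cluster can lack HP1a, lack uniquely placed reads or lack depth, and the lists do not tell these apart.

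HP1a clusters filled a continuous block at the proximal end of both arms and then thinned within about 100 kb. The block was taken as the run of 100 kb bins from the end of the arm sequence, with 50% or more of the bases in clusters of each replicate. The block was 0.9 Mb long on 2L, with its distal end at 22111545, and 1.5 Mb on 3L, with its distal end at 23043558. Over the whole 2 Mb, replicate 1 covered 45.9% and replicate 2 covered 43.0% of 2L, and 68.9% and 66.1% of 3L. The means were 44.5% ± 2.04 on 2L and 67.5% ± 2.01 on 3L (SD, n = 2), a difference larger than the spread between the replicates.

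**Figure D1:**
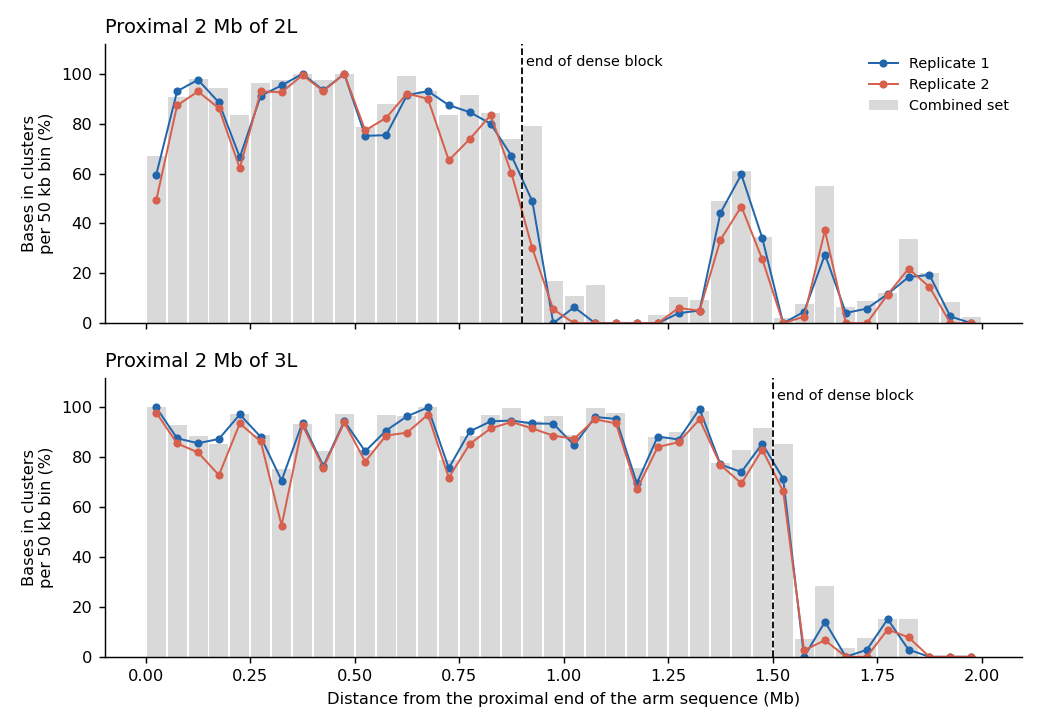
Percent of bases in HP1a clusters per 50 kb bin (y axis) against distance from the proximal end of the arm sequence in Mb (x axis) for 2L and 3L; lines are the replicates, grey bars the combined set and the dashed line the end of the dense block. Both replicates stay high up to 0.9 Mb on 2L and 1.5 Mb on 3L and lie below 20% past 1.0 Mb on 2L and 1.55 Mb on 3L, except for separate peaks on 2L past 1.35 Mb.

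Within the block coverage was not uniform, and several bins were low in both replicates. On 2L the 50 kb at the proximal end was filled to 59.5% by replicate 1 and 49.3% by replicate 2, and the bin from 0.2 to 0.25 Mb to 66.6% and 62.2%. The bin from 0.45 to 0.5 Mb was covered to 100.0% in both. On 3L the end of the sequence was filled, at 100.0% and 98.0% of the first 50 kb. The lowest 3L bin for replicate 2 lay at 0.3 to 0.35 Mb, with 70.7% and 52.7%, and the lowest for replicate 1 at 1.15 to 1.2 Mb, with 69.6% and 67.2%. In the replicates, the end of the sequence thus differed between the arms, thin on 2L and full on 3L.

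Each span was divided into 3 zones: inside (the block without its last 100 kb), border (100 kb on either side of the block end) and past (the rest of the 2 Mb). Of the 201 clusters of the combined set, 101 lay inside, 36 at the border and 64 past it. The count past the border was 49 on 2L, where that zone is 1.0 Mb long, and 15 on 3L, where it is 0.4 Mb. The zones were drawn from coverage, so the contrasts between them are descriptions and carry no test.

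Inside the block, clusters of replicate 1 took up 87.0% of 2L and those of replicate 2 took up 83.6%, and on 3L 89.0% and 85.6%. At the border the values were 49.0% and 44.8% on 2L and 57.8% and 55.4% on 3L. Past the border they were 12.4% and 10.2% on 2L and 4.34% and 3.17% on 3L. The ranges of the arms overlapped inside. Over the zones past the border 2L exceeded 3L in both replicates, but these zones reach 1100 kb beyond the block end on 2L and 500 kb on 3L. At matched distances, chosen after seeing the data, the order depended on the distance. Over the first 300 kb past the border 2L was the lower arm, with 1.75% and 1.02% against 5.79% and 4.23% on 3L. Over 400 kb it was the higher, with 7.47% and 5.57% against 4.34% and 3.17%. Over 1000 kb, which runs past the 2 Mb span on 3L, 2L had 12.4% and 10.2% and 3L had 2.43% and 2.03%.

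Clusters inside the block were several times longer than those past it. Replicates 1 and 2 had median lengths of 9496 bp and 6648 bp inside on 2L, against 2535 bp and 2837 bp past the border. On 3L it was 15122 bp and 8335 bp inside, against 2012 bp and 1904 bp past the border. The ratio of medians was 3.75 in replicate 1 and 2.34 in replicate 2 on 2L, and 7.52 and 4.38 on 3L. Every replicate value inside exceeded every value past the border on both arms. Between the arms the inside medians overlapped and did not differ beyond the replicates. At the border the medians were 2121 bp and 2248 bp on 2L, no longer than past it, and 5131 bp and 4534 bp on 3L.

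Long clusters held most of the clustered bases inside the blocks, by a margin that depended on the list. In the combined set 14 of 38 clusters inside the 2L block and 22 of 63 inside the 3L block were 20 kb or longer. They held 78.6% and 76.8% of the clustered bases there. In replicate 1 clusters of that length held 78.0% on 2L and 73.1% on 3L, and in replicate 2 they held 57.9% and 55.0%. None of the members past the border reached 20 kb. The longest member was on 3L from 23832408 to 23936100, 103.7 kb, and 99.98% of it lay in clusters of replicate 1 and 98.1% in clusters of replicate 2. On 3L the cluster from 23417892 to 23491642 came next, with 73.8 kb, and that from 24271784 to 24335072 had 63.3 kb. The other two of the 5 longest had 59.9 kb, from 23165588 to 23225532, and 55.9 kb, from 24023084 to 24078998. On 2L the cluster from 22576382 to 22669768 was the longest, with 93.4 kb, and the second, of 72.5 kb, began at 22338550 and ended at 22411022. Those of 66.5 kb at 22506704 to 22573174, of 44.3 kb at 22840852 to 22885180 and of 39.9 kb at 22419352 to 22459236 completed the 5 longest. All 10 lay inside a block and were covered to more than 93% by each replicate.

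The replicates divided the same sequence differently. Replicate 2 had 53 clusters inside the 2L block and 85 inside the 3L block, where replicate 1 had 38 and 59. Of the 14 long members of 2L, 10 were a single cluster in replicate 1 and 5 in replicate 2, and of the 22 long members of 3L, 15 and 8. The longest member of 3L was 1 cluster in replicate 1 and 5 in replicate 2, and the longest of 2L was 2 and 4. Replicate 2 still covered at least 89.8% of each long member. The count and length of clusters inside the blocks thus moved with the replicate, while the covered bases moved little. Of the bases in replicate 1 clusters inside, 93.6% on 2L and 95.1% on 3L were also in replicate 2, and 97.5% and 98.9% were shared in the opposite direction.

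The authors gave each cluster a score, above 0 for enriched regions, on a scale that these sources do not give. It was read only within a list. In the combined set the median score was 2.09 inside the 2L block and 2.10 inside the 3L block, 0.53 and 0.86 at the border and 0.53 and 0.49 past it. In replicate 1 the medians inside, at the border and past it were 2.27, 0.79 and 0.92 on 2L and 2.22, 1.44 and 0.69 on 3L. In replicate 2 they were 1.92, 0.71 and 0.85 on 2L and 1.83, 0.87 and 0.68 on 3L. In each list the scores were therefore close on the 2 arms inside the block, high there and low past it. The median of the 2L border was already at the low level, and that of the 3L border lay between. This median counts each cluster alike, and the 3 longest members of the 2L border scored 2.09, 1.43 and 1.52 in the combined set. Of the combined-set members, 36 of 38 on 2L and 61 of 63 on 3L inside the block scored at or above the median of the whole list, against 4 of 19 and 10 of 17 at the border and 17 of 49 and 2 of 15 past it.

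**Figure D2:**
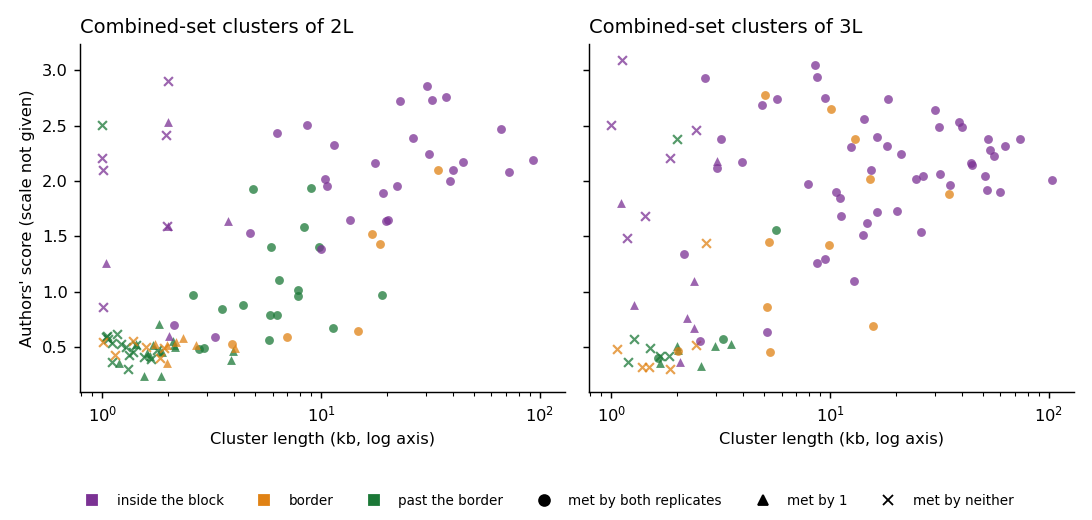
Authors' score (y axis, scale not given) against cluster length in kb (x axis, log) for the combined-set clusters of 2L and 3L; colour gives the zone and shape the number of replicates that met the cluster. Of the members inside the block, 36 of 38 on 2L and 61 of 63 on 3L reach the median score of the whole list, while the medians past the border are 0.53 and 0.49; crosses with high scores inside the block are short clusters that neither replicate had.

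Score showed no steady change along the blocks. Across members inside, Spearman's rho of score with distance from the proximal end was -0.16 over 38 members on 2L and 0.083 over 63 on 3L, and rho of length with distance was 0.091 and 0.10. These are descriptions across regions that share libraries. In steps of 200 kb the median score on 2L was 2.00, 2.25, 2.42 and 1.65 going away from the centromere, so that the last 200 kb before the border was the lowest. On 3L the 7 steps ranged from 1.58 at 0.2 to 0.4 Mb to 2.38 at 1.0 to 1.2 Mb.

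The highest-scored members of at least 2 kb that both replicates covered to 50% or more were not the longest. On 3L they were 23142780 to 23151350 (8.57 kb, score 3.04), 23370638 to 23379334 (8.70 kb, score 2.94) and 24092220 to 24094898 (2.68 kb, score 2.93). The first of these lies at the outer limit of the inside zone, about 100 kb from the block end. On 2L they were 22680118 to 22710684 (30.6 kb, score 2.86), 22744500 to 22781818 (37.3 kb, score 2.76) and 22955268 to 22987336 (32.1 kb, score 2.74). The scores of the replicates ranked members alike inside the block, with rho 0.71 over 26 members on 2L and 0.91 over 49 on 3L.

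The borders of the arms differed in shape. On 3L coverage stayed high to the end of the block and 40 kb beyond. Replicate 1 filled 100.0% and replicate 2 filled 99.9% of the last 20 kb before the end. They covered the first 20 kb beyond to 96.0% and 91.9% and the next to 73.9% and 67.0%. The third bin beyond fell to 8.59% and 7.08% and the fourth held no cluster in either replicate. On 2L the decline was broken. The bin from 60 to 40 kb before the end fell to 25.2% and 33.0%, the next rose to 89.99% and 80.8%, and the last before the end held 68.4% and 60.4%. The first 20 kb beyond was covered to 56.9% and 32.5%, the second to 56.5% and 33.5%, the third to 8.72% and 8.99%, and the fourth to 0 in both. Both arms thus had no cluster in either replicate 60 to 80 kb beyond the block end. In the 20 kb after that replicate 2 alone had clusters, over 13.8% on 2L and 6.51% on 3L.

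On 3L the score fell nearer the centromere than the coverage did, and in the combined set 2L showed the same. The longest member of the 3L border, from 23031354 to 23066374 (35.0 kb, score 1.89), spans the block end and was 99.7% covered by replicate 1 and 97.0% by replicate 2. The next long member outward, 23006980 to 23022756 (15.8 kb), scored 0.69, although the replicates covered 91.2% and 84.7% of it. The third, 23071706 to 23086950 on the inner side (15.2 kb), scored 2.02. On 2L the members 22168414 to 22202444 (34.0 kb), 22128932 to 22147596 (18.7 kb) and 22105826 to 22122822 (17.0 kb) scored 2.09, 1.43 and 1.52 going outward. The replicates covered 98.1% and 85.2% of the last of these, which spans the 2L block end. The next long 2L member outward, 22079536 to 22094208 (14.7 kb), scored 0.65, and the replicates covered 66.6% and 45.6% of it. The combined set still covered the first 20 kb beyond the 2L block end to 84.1% and the next 20 kb to 82.6%.

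**Figure D3:**
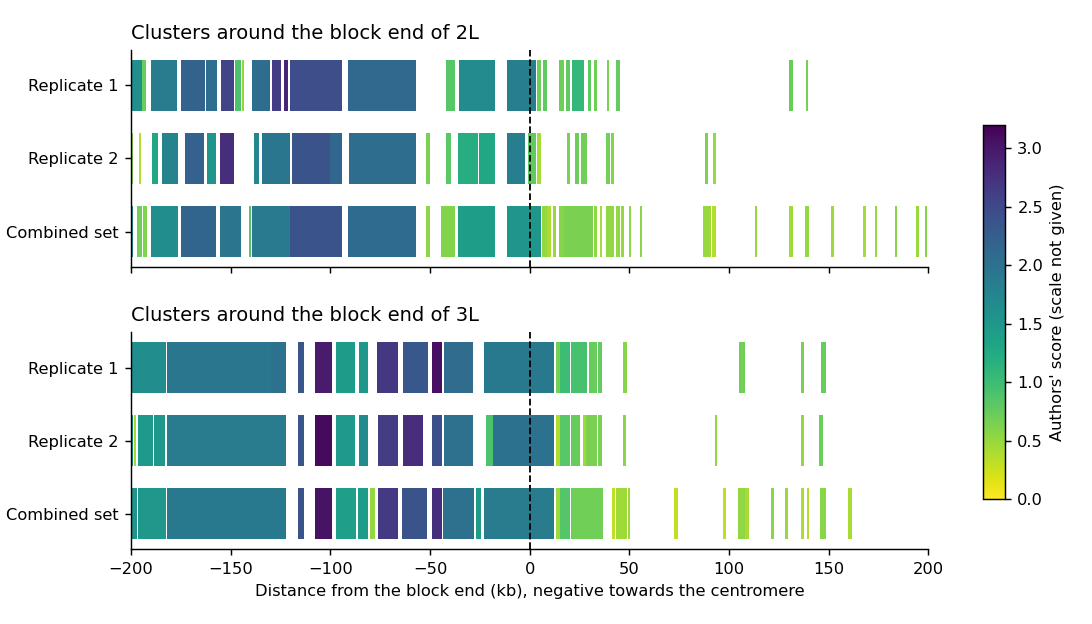
Clusters of replicate 1, replicate 2 and the combined set within 200 kb of the block end (dashed line) on 2L and 3L, with distance in kb on the x axis, negative towards the centromere, and colour giving the authors' score, to be read within a row. Most high-scored clusters lie before the block end, and most clusters beyond it are narrow and low-scored, although the combined set has a wide one on each arm; on 3L clusters thin out about 40 kb beyond the end in the replicates; the combined set fills the first 50 kb beyond the 2L block more densely than either replicate.

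The combined set filled the sequence just beyond the 2L block end more densely than the replicates, but did not move that end. It covered 47.9% of the 100 kb bin from 0.9 to 1.0 Mb, under the 50% required. In the first 50 kb beyond the block it covered 79.0%, where replicate 1 covered 48.8% and replicate 2 covered 30.0%. On 3L it covered 85.2% against 71.4% and 66.4%. Of the combined-set bases in the 2L border, 63.7% lay in both replicates, 19.9% in 1 and 16.4% in neither, and in the 3L border 80.8%, 6.32% and 12.8%. Inside the blocks 89.3% on 2L and 92.9% on 3L lay in both, and past the border 49.8% and 22.4%.

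Gaps were short inside the blocks and long past them. On 2L replicate 1 had 38 gaps inside with a median of 1437 bp, and replicate 2 had 54 with a median of 1360 bp. On 3L there were 58 gaps with a median of 2080 bp and 84 with a median of 1372 bp. Past the border the medians were 12116 bp and 6113 bp on 2L and 32644 bp and 30613 bp on 3L, over 30, 31, 8 and 6 gaps. Gaps at the border were intermediate on 2L, with medians of 2564 bp and 3126 bp, and 1982 bp and 1962 bp on 3L. The border medians of 3L lay within the range of those inside. The zones differ in length. Per Mb, replicates 1 and 2 had 47.5 and 67.5 gaps inside 2L against 30.0 and 31.0 past the border. On 3L they had 41.4 and 60.0 against 20.0 and 15.0. In the combined set there were 47.5 against 50.0 on 2L and 44.3 against 40.0 on 3L. The border had the most gaps per Mb in each list, from 70.0 to 100.0.

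Gaps that lacked a cluster in both replicates made up 86.9 kb of the inside zone of 2L in 36 pieces and 140.3 kb of that of 3L in 50 pieces. The longest inside 2L was the end of the arm sequence itself, 22994444 to 23011544 (17.1 kb), where the combined set had 3 clusters over 23.3% of the bases. It was followed by 22789748 to 22801456 (11.7 kb, 55.6% in the combined set) and 22499105 to 22506722 (7.62 kb, 0.43%). These 3 gaps held 41.9% of all the sequence without a cluster in either replicate inside the 2L block. The longest inside 3L were 23821427 to 23832418 (11.0 kb, 8.47% in the combined set), 24126481 to 24136225 (9.74 kb, 13.2%) and 24006563 to 24012788 (6.23 kb, 11.4%), which held 19.2%. The shares come from zones of 0.8 Mb on 2L and 1.4 Mb on 3L. In the combined set, which partly fills these gaps, the longest gap inside was 7.59 kb on 2L and 10.1 kb on 3L.

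**Figure D4:**
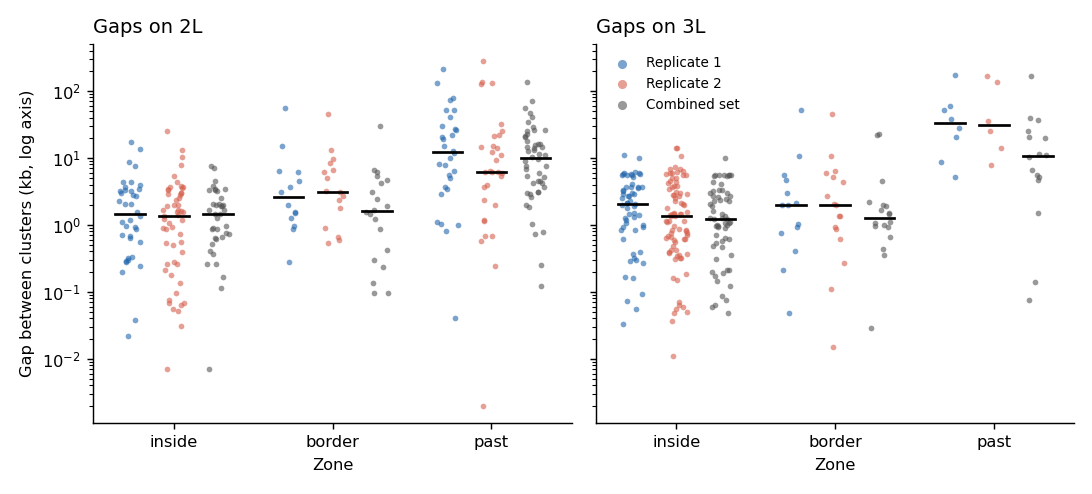
Length of each gap between clusters in kb (y axis, log) by zone (x axis) for 2L and 3L; points are gaps of replicate 1, replicate 2 or the combined set, cut at the zone limits, and bars are medians. Medians inside lie between 1231 and 2080 bp in all lists and rise past the border to 6113 bp or more.

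Past the border both arms held long stretches with few or no clusters. On 3L the outermost 167.6 kb of the span, from 22543558 to 22711169, held no cluster in any of the 3 lists. The 2 Mb limit cuts this stretch, and the next cluster of the combined set outward ends at 22292440. The longest 3L members past the border were 22754316 to 22759978 (5.66 kb, score 1.56), covered to 97.6% and 96.6%, then 22935390 to 22938918 (3.53 kb, score 0.53), covered to 83.6% by replicate 1 and absent from replicate 2, and 22894826 to 22898060 (3.23 kb, score 0.57), covered to 75.4% and 53.5%. On 2L neither replicate had a cluster in the 213.1 kb from 21758685 to 21971755, and the combined set placed 8 short clusters over 4.59% of it.

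Beyond that stretch 2L held a second, looser group of clusters. From 21511545 to 21661544, 1.35 to 1.5 Mb from the proximal end, 46.0% of the bases lay in clusters of replicate 1 and 35.3% in those of replicate 2. It contained 11 members with a median length of 5817 bp and scores from 0.35 to 1.94. Of these, 8 were covered to at least 50% by both replicates, against 40.0% of all clusters of the combined set. Since the group was picked by its coverage in both replicates, that count follows in part from the choice of this group. The longest member past the 2L border, 21577086 to 21596158 (19.1 kb, score 0.97), lies in it, with 97.6% in replicate 1 and 81.7% in replicate 2, as does the third, 21649890 to 21659720 (9.83 kb, score 1.40). The second, 21368646 to 21380006 (11.4 kb, score 0.67), lies in a smaller group 1.6 to 1.65 Mb from the end, where 27.5% and 37.2% of the bases were covered. These groups, defined after seeing the data as 50 kb bins past the border covered to at least 25% in both replicates, began 450 kb and 700 kb beyond the 2L block end, whereas the 3L zone past the border stops at 500 kb. Over the same 1000 kb past the border on 3L, most of it outside the 2 Mb span, none of 20 such bins reached 25% in both replicates, against 4 of 20 on 2L, and the highest held 15.1% in replicate 1 and 10.9% in replicate 2. Between the clusters of the groups lay 129.0 kb from 21414682 to 21543635 without a cluster in either replicate, in which the combined set had a 1001 bp cluster at 21486678 with a score of 2.51.

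Support by the replicates was highest inside the blocks on both arms. The blocks were defined by coverage in both replicates, and the combined set joins the same replicates. Higher support inside than past the border or in the whole list therefore follows in part from that rule. Of the members inside, 75 of 101 (74.3%) were covered to at least 50% by both replicates, against 40.0% of all clusters of the combined set. At the border it was 13 of 36 (36.1%), near the share of the whole list, and past the border 18 of 64 (28.1%), below it. On 2L the share was 68.4% inside, 15.8% at the border (3 of 19) and 30.6% past it (15 of 49). By this count of members the 2L border was the lowest zone. By bases it was not, with 63.7% of the combined-set bases in both replicates at the 2L border and 49.8% past it. On 3L it was 77.8% inside, 58.8% at the border (10 of 17) and 20.0% past it (3 of 15). With each list limited to clusters at or above its median score, support at the border, 71.4%, was close to that inside, 71.1%, and was 26.3% past it. The border value then rests on 4 members of 2L and 10 of 3L. All 56 members of 10 kb or longer inside, all 9 at the border and both past it met both replicates, that is, shared at least 1 bp with each. The same share was not computed for the whole combined set or for its clusters of 10 kb or longer. These counts therefore do not set the members apart from the rest of the list.

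Members that met neither replicate numbered 12 inside, 12 at the border and 22 past it, 46 of 201 in all, or 22.9%, against 29.6% of the whole combined set. All 12 inside were 1001 to 2449 bp long, and 6 were under 1301 bp, the least length in either replicate list. Their scores ran from 0.86 to 3.09 with a median of 2.21, and all 12 were at or above the median of the combined list. Those past the border were as short, 1001 to 1999 bp, but their median score was 0.50 and 2 of 22 reached the list median. These were the cluster at 21486678 on 2L and that from 22802202 to 22804200 on 3L (score 2.37). On 2L 3 of the 6 unmatched members inside lay in the last 17.1 kb of the arm sequence, and 1 more, from 22796056 to 22798052 (score 2.90), in the second longest gap. The unmatched members made up 0.894% of the member bases inside, 7.80% at the border and 14.2% past it.

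**Figure D5:**
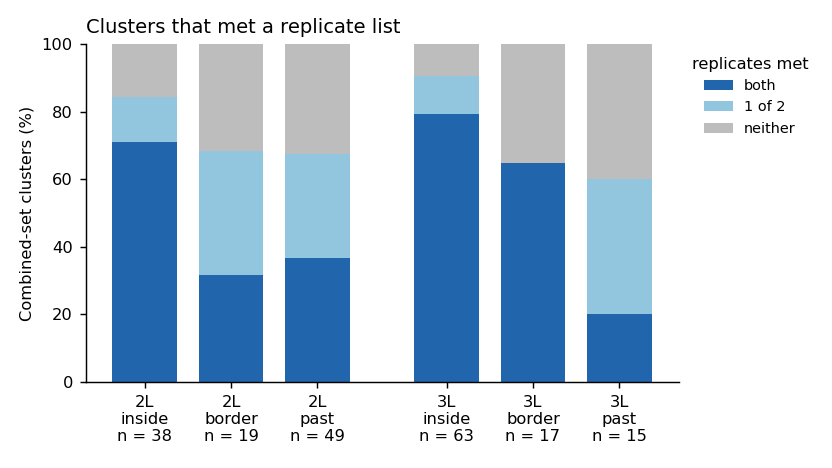
Percent of combined-set clusters (y axis) that shared at least 1 bp with both replicates, 1 replicate or neither, by arm and zone (x axis, n members each). The share met by both is 71.1% and 79.4% inside on 2L and 3L and 36.7% and 20.0% past the border. That share was not computed for the whole combined set.

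Where both replicates supported a member, most of its ends lay close together and some far apart. Over the 49 such members inside the 3L block the nearest replicate edges lay a median of 205 bp apart, and 67 of 98 edges were within 500 bp. Over the 26 inside the 2L block the median was 447 bp and 30 of 52 were within 500 bp. Inside, the upper quartile was 1150 bp on 2L and 830 bp on 3L, and the largest distance was 41127 bp on 2L and 40768 bp on 3L. At the 3L border 18 of 20 edges were within 500 bp.

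The proximal 2 Mb of X and 3R, measured the same way, were thinner in long clusters. Replicates 1 and 2 covered 14.2% and 16.5% of that of X and 8.58% and 8.62% of that of 3R. Their median cluster length was 2560 bp and 2495 bp on X and 2274 bp and 2247 bp on 3R, against 4856 bp and 4337 bp on 2L and 10589 bp and 7304 bp on 3L. Clusters of 10 kb or longer numbered 22 in each replicate on 2L and 42 and 39 on 3L, but 6 and 4 on X and 1 in each on 3R. Each value of 2L and 3L exceeded each value of X and 3R, and coverage of the pair was 4.68 times that of X and 3R. The arm 2R was not measured, so the contrast covers X and 3R only. In r5 the Het scaffolds lie apart from the arms, so a thin arm end does not measure the sequence nearer the centromere. The rest of 2L was covered to 3.62% and 3.80% and the rest of 3L to 3.18% and 3.76%. The 3L zone past the border, at 4.34% and 3.17%, overlapped the rest of 3L, whereas that of 2L, at 12.4% and 10.2%, was above the rest of 2L in both replicates. Over its first 300 kb, however, the 2L zone lay below the rest of 2L.

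The limit of 2 Mb fell in thin sequence on both arms. The member just inside it on 2L was 1313 bp at 21052794 with a score of 0.30, and the cluster just outside was 2607 bp at 20930874 with a score of 0.43. On 3L the member just inside was 2993 bp at 22711194 with a score of 0.51, and the cluster just outside was 1001 bp at 22291440 with a score of 0.51.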

How the data were processed

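Lists of HP1a ChIP-seq clusters for 2 ChIP replicates and for a combined set were read. Bowtie 0.12.7 is named in the submitters' processing notes, and per the file headers coordinates are on FlyBase r5. The calling of clusters and the joining of the replicates are steps not given in the sources used here. For each cluster the authors deposited its limits and a score, compared only within a list. The 2 regions named as depleted lay outside the spans. Clusters past a sequence end (4 in replicate 1, 4 in replicate 2, 5 in the combined set) were clipped to the header lengths. A cluster belonged to the zone of its midpoint. Coverage, gaps and medians were computed with Python 3.11.15, NumPy 2.4.6, pandas 2.3.3 and SciPy 1.17.1 and tested on simulated lists. Regions named were, per arm, the 5 longest members, the 3 highest-scored of at least 2 kb covered by both replicates, the 3 longest gaps inside, and the 3 longest members of the border and past it. Members and rules were chosen with earlier results of these data known. Reads and input libraries were not analysed here. Alternatives were a score limit, merged clusters, single replicates, other bins, limits and spans, other overlaps, matched distances past the border, and the combined set.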

Additional observations from a re-analysis of the deposited data

How the results depend on the processing

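Of 114 alternatives of the values that compare zones, arms or lists, 68 held, 44 moved and 2 reversed; a value held if it moved by no more than 1 SD of the replicates, a count or a ratio of the combined set if it stayed within 1.5 times, and a share if it stayed within its 95% exact binomial interval. The 28 that used a single replicate held, which for a mean of 2 values is so by construction. Without replicate 1 or replicate 2 the block stayed at 0.9 Mb on 2L and 1.5 Mb on 3L, and coverage of the 2 Mb ranged from 43.0% to 45.9% and from 66.1% to 68.9%. Inside minus past, coverage ranged from 73.3 to 74.6 and 82.4 to 84.7 points and median score from 1.07 to 1.36 and 1.15 to 1.53. The ratio of lengths ranged from 2.34 to 3.75 and 4.38 to 7.52, that of gaps from 4.50 to 8.43 and 15.7 to 22.3, the coverage of 2L and 3L over X and 3R from 4.35 to 5.04, and coverage past the border, 2L minus 3L, from 7.07 to 8.05 points.

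The block depended on its definition. With 75% of each bin it was 0.0 Mb on 2L and 0.3 Mb on 3L, and with 50 kb bins 0.0 and 1.55 Mb, since replicate 2 covered 49.3% of the last 50 kb of 2L; the 2L zones could then not be drawn. Allowing 1 such bin, chosen after seeing the data, gave 0.9 and 1.55 Mb. On 3L the limit of 75% by construction puts most of the dense sequence past the border, and it gave a coverage difference of 24.5 points, a length ratio of 1.72, a gap ratio of 1.66 and a reversed score difference of -0.029. With 50 kb bins the 3L gap ratio was 39.7 in place of 19.0, also with 1 bin allowed.

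Dropping the clusters that scored under their list's median, which by construction removes low scores, gave 57 members on 2L, coverage of 38.6% and 64.0%, a 2L coverage difference of 80.2 points, length ratios of 1.82 and 2.35 (combined set 1.99 and 3.35), score differences of 0.47 and 0.44 (combined set 1.13 and 0.15), gap ratios of 59.6 and 84.8, 71.4% border support and a ratio to X and 3R of 8.45. Merging clusters under 1000 bp apart gave 60 members on 3L, length ratios of 5.13 and 8.97 and a 3L gap ratio of 10.5. The proximal 1 Mb gave 57 and 45 members and 77.6% and 87.6% coverage, and 3 Mb gave 32.5% and 45.9%. The combined set gave 51.6% and 72.2% coverage and a 3L gap ratio of 8.73. Coverage past the border, 2L minus 3L, was 7.56 points, 8.88 in the combined set, and over matched distances, chosen after seeing the data, reversed to -3.63 for the first 300 kb and was 2.76 for 400 kb and 9.09 for 1 Mb. Counting 90% as shared gave support of 47.5% inside and 6.25% past the border. No paired analysis was possible because inputs have no cluster lists and the ChIP replicates form a single group.

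The depth is unknown, so a cluster missing from 1 replicate does not show absence of HP1a, and the part of depth or mappability in any gap was not tested.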
